A study of Homo sapiens with 4 samples.

Results

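The transcription factor genes NEUROD1, INSM1, POU3F2, POU2F3, SOX2, FOXA2, NKX2-1, ONECUT2 and HES6, which specify neuroendocrine and related cell lineages, were followed in LASCPC-01 cells treated with PBS or with ketotifen. They were taken by symbol from a table of 16376 genes, and all 9 were found in it. LASCPC-01 is an established human line of neuroendocrine prostate cancer, made from benign prostate epithelium by introducing N-Myc and activated AKT1, and both groups carry this background. The genotype is given as wild type for every sample. Ketotifen, an H1 antihistamine and mast cell stabiliser, was compared with its PBS control at day 3, with 2 libraries per group, and no dose is given in the labels. Polyadenylated RNA was sequenced, and values are FPKM, that is fragments scaled by the authors to gene length and library total, so that levels can be compared between genes. Group values are means ± SD with n = 2 libraries. The labels do not say whether the libraries of a group stem from separate cultures, so p-values reflect only the spread among these 4 libraries, possibly a technical one.

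Small cell and neuroendocrine carcinomas are commonly sorted by the lineage factor that dominates them. NEUROD1 is a basic helix-loop-helix activator of neuroendocrine differentiation, POU2F3 is the master regulator of tuft cells, the chemosensory cells of epithelia, and YAP1 marks carcinomas without neuroendocrine features. The other factors act around these. INSM1 is a zinc finger repressor of neuroendocrine progenitors, HES6 is a HES family member that counteracts HES1 and favours neuronal differentiation, SOX2 maintains progenitors, POU3F2 (BRN2) and ONECUT2 have been tied to the neuroendocrine switch of prostate cancer, and FOXA2 and NKX2-1 are lineage factors of foregut endoderm and lung.

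Promoters are shown for the members HES6, the tested factor with the largest change, and ONECUT2, because these were the searched members whose promoter held a motif of a lineage factor family. Of the 9 members, 6 had an entry in the RefSeq promoter table used (GRCh38.p14, 250 bases before to 50 after the gene start), with 7 promoters in all. POU2F3, INSM1 and FOXA2 had no entry, so their promoters were not searched. Promoters were searched on both strands for the octamer ATGCAAAT, the letters bound by POU class 2 factors, and for the E-box CAGCTG, which reads the same on both strands and is bound by basic helix-loop-helix factors. The capitals below mark these matches.
HES6: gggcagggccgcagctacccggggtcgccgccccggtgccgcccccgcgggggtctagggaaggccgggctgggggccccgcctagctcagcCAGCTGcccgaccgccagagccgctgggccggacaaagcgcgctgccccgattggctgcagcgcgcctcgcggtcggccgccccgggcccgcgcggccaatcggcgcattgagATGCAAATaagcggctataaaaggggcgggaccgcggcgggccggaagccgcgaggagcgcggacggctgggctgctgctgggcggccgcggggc
ONECUT2: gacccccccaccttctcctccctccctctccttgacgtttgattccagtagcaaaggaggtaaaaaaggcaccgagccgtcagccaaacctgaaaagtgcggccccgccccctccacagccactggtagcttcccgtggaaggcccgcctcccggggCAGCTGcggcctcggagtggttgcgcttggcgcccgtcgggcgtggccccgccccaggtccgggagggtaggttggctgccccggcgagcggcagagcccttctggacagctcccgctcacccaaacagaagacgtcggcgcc
The HES6 promoter lies at chr2:238239989-238240288 on the minus strand, and the ONECUT2 promoter at chr18:57435124-57435423 on the plus strand. In HES6 the E-box began 158 bases and the octamer 45 bases before the gene start, and in ONECUT2 the E-box began 93 bases before it. The octamer occurred in 1 of the 7 members' promoters and in 1.77% of all 35116 promoters of the table, and the E-box in 2 of the 7 and in 17.9% of all. Both motifs together were found in 0.333% of all promoters. Of the tuft cell list used below, 7 genes had an entry, namely AVIL, BMX, CHAT, GFI1B, IRAG2, POU2AF3 and PTGS1. Of their 16 promoters 1, at BMX, held the octamer, and 1, at POU2AF3, held the E-box. C11orf53 and TRPM5 were not among the searched genes. These matches are letters in a short window, and binding was not measured.

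By level, POU2F3 and HES6 stood highest among the 9 factors. POU2F3 had 191.5 and 207 FPKM in PBS libraries A and B and 185 and 185 FPKM in ketotifen libraries A and B, more than 98.4% of the genes in the table. NEUROD1, the factor of a neuroendocrine class, had 0.0488 and 0.0923 FPKM with PBS and 0.0437 and 0.0594 FPKM with ketotifen, from 4 to 8 recovered reads per library. POU2F3 therefore exceeded NEUROD1 between 2244 and 4238 times in the 4 libraries, a ratio whose spread includes the counting error of those few reads. POU2F3 (11: 120236638 to 120319945) and NEUROD1 (2: 181668295 to 181680517) are protein-coding genes in GRCh38.p14.

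Other genes of the tuft cell program were also abundant. Of 11 such genes in the table, 5 averaged 100 FPKM or more and 8 averaged 10 FPKM or more, against 3.55% and 34.1% of all genes. IRAG2, a gene of tuft cells and lymphocytes, had a mean level of 421 FPKM over the 4 libraries, AVIL, the actin regulator advillin, 205 FPKM, and C11orf53, also called POU2AF2, which encodes a coactivator of POU2F3, 170 FPKM. BMX, a tyrosine kinase, had 159 FPKM and TRPM5, the cation channel of taste and tuft cells, 118 FPKM. The exceptions were ASCL2, a basic helix-loop-helix factor, at 3.05 FPKM, and COLCA2 (POU2AF3, another POU2F3 coactivator) and CHAT, which makes acetylcholine, at 0.447 and 0.153 FPKM. The median of the list was 72.9 FPKM, against 4.15 FPKM over all rows. The list was chosen with earlier results of these data known, and the levels are a description.

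Genes of the NEUROD1 and YAP1 classes were mostly low. Of 11 further genes of the NEUROD1 class, 9 had a mean under 1 FPKM, while 10586 of all 16376 genes averaged 1 FPKM or more. The highest were EOMES at 4.98 FPKM, SSTR2, a somatostatin receptor, at 2.05 FPKM and NHLH1 at 0.277 FPKM. YAP1 had 0.441 FPKM, and none of the 7 genes of its list reached 10 FPKM, where 34.1% of all genes did. REST, the repressor of neuronal genes, was the highest at 6.77 FPKM, followed by AJUBA at 2.53 and CCN2 at 1.18 FPKM. EOMES and REST were above the median of all rows, 4.15 FPKM. Among 5 prostate lineage factors GATA2 was the highest with 12.5 FPKM, and GRHL2 and FOXA1 had 6.89 and 6.86 FPKM. These levels come from bulk RNA, so fewer cells of a type and less RNA per cell cannot be told apart.

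**Figure D1:**
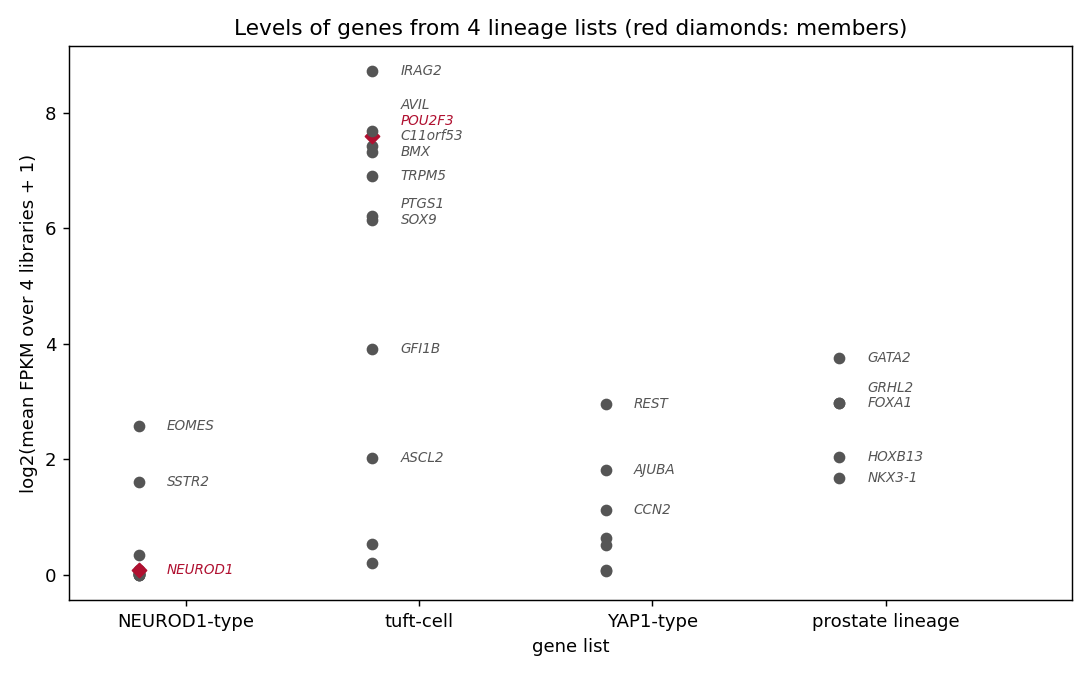
Mean level over the 4 libraries, as log2(FPKM + 1), of the genes of 4 lineage lists; each point is a gene, red diamonds are the members POU2F3 and NEUROD1, and genes with at least 1 FPKM are named, with crowded names in the order of their points. POU2F3 sits among tuft cell genes of 118 to 421 FPKM, and NEUROD1 near 0 with most of its list.

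HES6 had the highest mean of the 9 factors, close to that of POU2F3. It had 205 and 167 FPKM in PBS libraries A and B and 227 and 229.5 FPKM in ketotifen libraries A and B, and 232 of 16376 genes had a mean level as high or higher. HES6 and POU2F3 were not separated by their spread: HES6 was the higher in 3 of 4 libraries, and PBS library B had 0.804 times as much HES6 as POU2F3. HES1, the family member that HES6 opposes, had a mean of 1.08 FPKM. HES6 was 154 and 140 times as high as HES1 in PBS libraries A and B, and 177 and 436 times in ketotifen libraries A and B. The ratio of 436 rests on 28 recovered reads of HES1, against 65 to 74 in the other libraries. HES4 was the only other HES or HEY gene of 8 in the table with at least 10 FPKM, at 147 FPKM, followed by HES2 at 5.34 FPKM and HES7 at 2.04 FPKM. HES6 (238238267 to 238240038) lies on chromosome 2 in GRCh38.p14.

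INSM1 and SOX2 formed the middle of the order. INSM1 had 22.9 and 21.7 FPKM with PBS and 19.7 and 21.8 FPKM with ketotifen, and its lowest library was above the highest of SOX2. SOX2 had 13.0 and 13.6 FPKM with PBS and 13.0 and 11.99 FPKM with ketotifen. Some other SOX genes had higher means than SOX2: SOX9 of the tuft cell list had 70.0 FPKM, and SOX12 and SOX4, both SoxC factors, had 44.0 and 40.5 FPKM. SOX1, a close relative of SOX2, had 0.851 FPKM. For INSM1, subunits of the LSD1 corepressor complex it recruits were present, with KDM1A (LSD1) at 85.7 FPKM, HDAC1 at 82.5 FPKM and RCOR2 at 34.8 FPKM. TLE5, of the Groucho family that HES proteins bind, was the highest of 13 corepressor genes with 184 FPKM. The E proteins, partners of class II helix-loop-helix factors, were present too, led by TCF3 at 46.4 FPKM. So were the ID inhibitors, led by ID2 and ID3 at 65.7 and 60.8 FPKM.

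ONECUT2 and POU3F2 were low. ONECUT2 had 3.12 and 3.41 FPKM with PBS and 2.91 and 2.75 FPKM with ketotifen, while POU3F2 had 1.93 and 2.41 FPKM with PBS and 1.92 and 1.70 FPKM with ketotifen. The ranges of ONECUT2 and POU3F2 over the 4 libraries did not overlap. POU3F2 was between 85.8 and 109 times lower than POU2F3, its relative with the same type of DNA-binding domain. Because FPKM divides by gene length, the order by reads differed: ONECUT2 had 1524 to 1948 recovered reads per library and SOX2 had 1017 to 1203, since 1 FPKM of ONECUT2 stood for 6.54 times as many reads as 1 FPKM of SOX2. Of 9 other POU genes POU4F1 had the highest mean, 7.45 FPKM, then POU2F1 with 3.42 FPKM and POU6F1 with 1.51 FPKM. Both other ONECUT genes were under 0.02 FPKM, with ONECUT1 at 0.0149 and ONECUT3 at 0.00618 FPKM, and NKX6-1 at 1.95 FPKM and NKX2-8 at 0.683 FPKM were the highest NKX genes of that list.

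NKX2-1, NEUROD1 and FOXA2 were near 0, and their order was not resolved. NKX2-1 had 0.179 and 0.460 FPKM with PBS and 0.252 and 0.0499 FPKM with ketotifen, from 7, 19, 11 and 2 recovered reads. FOXA2 was listed at 0 in PBS library A and ketotifen library B and had 0.0209 FPKM in PBS library B and 0.0594 FPKM in ketotifen library A, from 1 and 3 recovered reads. Recovered reads are the smallest whole numbers that give the deposited values, so the true numbers may be a multiple of them. The ranges of NKX2-1, NEUROD1 and FOXA2 overlapped from neighbour to neighbour, and their groups were not compared in the main test because their means were under 1 FPKM. FOXA1, the luminal relative of FOXA2, had 7.34 ± 0.871 FPKM with PBS and 6.38 ± 0.657 FPKM with ketotifen.

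**Figure D2:**
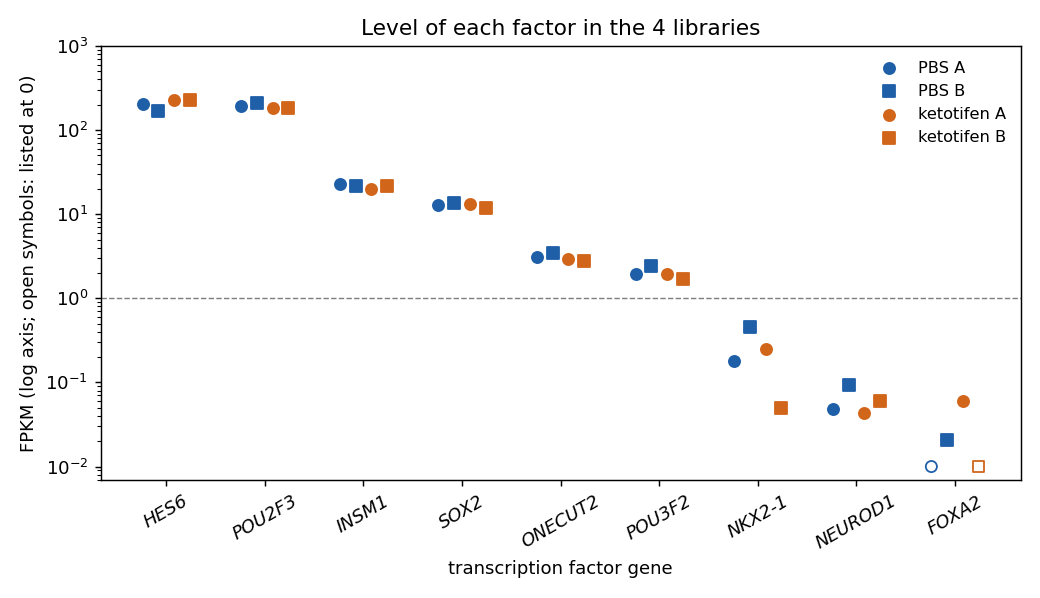
FPKM (log axis) of the 9 factors in PBS libraries A and B (blue) and ketotifen libraries A and B (orange), with open symbols for values listed at 0 and a dashed line at 1 FPKM, the mean needed for testing. HES6 and POU2F3 lie between 167 and 229.5 FPKM, and NKX2-1, NEUROD1 and FOXA2 lie under 0.5 FPKM in every library.

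The description of LASCPC-01 as a neuroendocrine line was met only in part by 6 neuroendocrine markers other than the members, which include INSM1. UCHL1 had 446 ± 16.4 FPKM with PBS and 488 ± 2.42 FPKM with ketotifen, and NCAM1 had 51.6 ± 0.62 and 44.2 ± 0.355 FPKM. The vesicle markers were near absent: mean levels over the 4 libraries were 0.469 FPKM for SYP, 0.0561 FPKM for CHGB and 0.0435 FPKM for CHGA, and ENO2 had 2.38 FPKM. Markers of fibroblasts, immune cells and endothelium were at or near 0 apart from CD68 at 3.20 FPKM and COL1A1 at 2.40 FPKM, with the 6 fibroblast markers summing to 2.17 to 3.15 FPKM, the 4 immune markers to 2.85 to 4.14 FPKM and the 4 endothelial markers to 0.126 to 0.220 FPKM over the 4 libraries. The next highest of these markers were DCN (0.154 FPKM) and COL3A1 (0.0565 FPKM) of fibroblasts, CD14 (0.0892 FPKM) and CD3E (0.0107 FPKM) of immune cells, and VWF (0.110 FPKM), CDH5 (0.0575 FPKM) and PECAM1 (0.0164 FPKM) of endothelium. The summed immune markers were highest in PBS library B. Recovered reads of tested genes were between 31154678 and 34812856 per library. The ketotifen libraries were closest to each other (Pearson r = 0.998 over log2 values, across genes), and PBS library B was farthest from them (r = 0.993 and 0.994). A chi-square of the reads, which averages about 1 per gene when libraries differ by sampling alone, was 10.5 between the PBS libraries and 4.75 between the ketotifen libraries, so none was taken for a second copy of another, which does not tell separate cultures from repeat libraries of one culture. PBS library A was about as near to the ketotifen libraries, at 11.2 (A) and 9.94 (B), as to PBS library B, with r = 0.996 in each of these pairs. PBS library B had 28.1 and 22.8 against ketotifen libraries A and B.

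The second question was whether ketotifen changed these factors. The test was limma on log2(FPKM + 1) over the 10586 genes that averaged 1 FPKM or more, with Benjamini-Hochberg adjustment over all of them. Of the 9 factors 6 reached this level and 3 did not. None of the 6 passed at an adjusted p under 0.05, where 13 genes or 0.123% of all tested genes did (1 higher, 0.00945%, and 12 lower, 0.113%). At an unadjusted p under 0.05 stood 1 of the 6, HES6, against 20.4% of all tested genes. With limma's voom on the recovered reads 1 of the 6 was higher, again HES6, and 0 were lower, where 3.35% of all tested genes were called higher, 3.56% lower and 6.91% in all. The median log2 change, ketotifen minus PBS, was -0.10 over the 6 factors and -0.02 over all tested genes, and 5 of the 6 changes were negative, as were 55.7% of all.

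HES6 had the largest difference and the only positive one. Its level was 186 ± 26.97 FPKM with PBS and 228 ± 2.04 FPKM with ketotifen, 1.23 times as high, and both ketotifen libraries lay above both PBS libraries, as in 23.2% of all tested genes. The log2 change was 0.30 ± 0.09 (SE), with a 95% interval of 0.10 to 0.51 and a limma adjusted p of 0.148. In voom the change was 0.30 (adjusted p = 0.0118). The PBS libraries themselves differed as much as the groups did, by -0.30 (B minus A) on the log2 scale, and the ketotifen libraries by 0.02. Without PBS library B the change in HES6 was 0.15, and without PBS library A it was 0.45. It was 0.31 without ketotifen library A and 0.29 without ketotifen library B. With 1 PBS library left, the spread comes from the 2 ketotifen libraries alone, that of HES6 being pooled by limma with that of other genes. In HES6 the ketotifen libraries differed far less than the PBS libraries did, so p-values of such fits are not given.

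POU2F3 had slightly lower values with ketotifen. It had 199 ± 11.1 FPKM with PBS and 185 ± 0.274 FPKM with ketotifen, a log2 change of -0.11 ± 0.06 (SE) with a 95% interval of -0.24 to 0.02 (limma adjusted p = 0.329, voom adjusted p = 0.189). Both ketotifen libraries lay below both PBS libraries, as in 31.2% of all tested genes, and the PBS libraries differed by 0.11 (B minus A). Without PBS library A the change was -0.16, and without PBS library B it was -0.05. The spread in these fits comes from the ketotifen libraries, pooled by limma over genes. In POU2F3 those libraries differed by only -0.003 (B minus A). The interval excludes a fall of POU2F3 larger than 0.24 on the log2 scale only under this model, with values not rescaled. The POU2F3 change was -0.16 after rescaling to an equal FPKM sum, -0.17 with quantile normalization and -0.08 with median ratio scaling.

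ONECUT2 and POU3F2 also had lower values in both ketotifen libraries than in either PBS library, so that 3 of the 6 tested factors lay lower in this way, against 31.2% of all tested genes. In either direction 4 of the 6 had groups that did not overlap, against 54.4% of all tested genes. ONECUT2 had 3.26 ± 0.206 FPKM with PBS and 2.83 ± 0.114 FPKM with ketotifen, a log2 change of -0.16 with a 95% interval of -0.34 to 0.03 (limma adjusted p = 0.318, voom adjusted p = 0.102). In voom without PBS library A the ONECUT2 change was -0.27, from a fit with 1 PBS library. POU3F2 had 2.17 ± 0.343 FPKM with PBS and 1.81 ± 0.156 FPKM with ketotifen, a log2 change of -0.17 with a 95% interval of -0.41 to 0.06 (limma adjusted p = 0.376). The gap between PBS libraries A and B in POU3F2, 0.22 on the log2 scale, was larger than the difference between the groups. Without PBS library B the POU3F2 change was -0.06 in limma.

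INSM1 and SOX2 had overlapping groups. INSM1 had 22.3 ± 0.856 FPKM with PBS and 20.8 ± 1.49 FPKM with ketotifen, and ketotifen library A lay below both PBS libraries while ketotifen library B lay between them. The INSM1 log2 change was -0.10 with a 95% interval of -0.25 to 0.06 (limma adjusted p = 0.433, voom adjusted p = 0.396). It was -0.03 without ketotifen library A and -0.17 without ketotifen library B. SOX2 had 13.3 ± 0.425 FPKM with PBS and 12.5 ± 0.748 FPKM with ketotifen, a log2 change of -0.08 with a 95% interval of -0.24 to 0.07 (limma adjusted p = 0.502), and -0.03 without ketotifen library B.

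**Figure D3:**
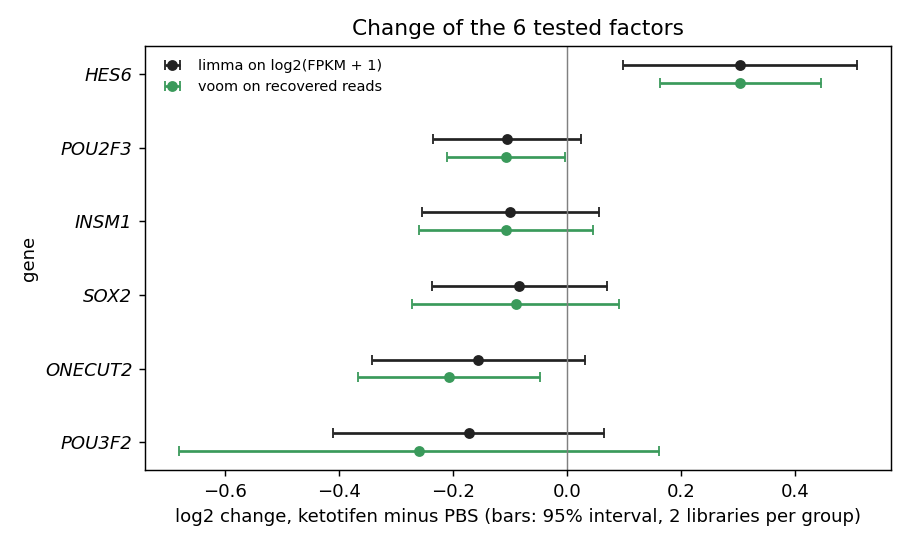
Log2 change, ketotifen minus PBS, of the 6 tested factors with 95% intervals (2 libraries per group), from limma on log2(FPKM + 1) in black and from voom on recovered reads in green. The interval of HES6, 0.10 to 0.51 in limma, lies above 0, and the other 5 point estimates lie below 0.

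Among relatives, partners and marker genes of these factors the calls came from voom alone. Over the 14 lists described here 53 genes were tested. Of these 0 passed in limma, 14 (26.4%) had an unadjusted p under 0.05, where 20.4% of all tested genes did, and voom called 7 (13.2%), all of them lower, where it called 3.56% of all tested genes lower and 6.91% in all. The lists were chosen with earlier results of these data known. Whether these 7 voom calls hold with a library left out was not examined. Of the 9 tested tuft cell genes voom called 1 lower, SOX9, an epithelial progenitor factor, which had 77.2 ± 6.52 FPKM with PBS and 62.9 ± 1.38 FPKM with ketotifen (voom adjusted p = 0.0052, limma adjusted p = 0.104), and 0 higher, and the median change of these 9 genes was -0.01. In the NEUROD1 list (2 tested), the YAP1 list (3 tested), the prostate list (5 tested), the POU relatives (3 tested) and the FOXA, ONECUT, INSM and NKX relatives (2 tested) voom called 0 genes. Voom called 1 gene lower and 0 higher in each of 4 other lists. These were HES7, a repressor of the segmentation clock, from 2.49 ± 0.209 to 1.59 ± 0.0707 FPKM (adjusted p = 0.0457 in voom and 0.1003 in limma), SOX12 from 47.4 ± 2.16 to 40.6 ± 1.27 FPKM (voom adjusted p = 0.0179), ID2 from 71.4 ± 2.68 to 60.0 ± 2.62 FPKM (voom adjusted p = 0.0226) and GSE1, a subunit of the LSD1 complex, from 65.0 ± 2.74 to 57.3 ± 0.483 FPKM (voom adjusted p = 0.0288). Among the neuroendocrine markers voom called NCAM1 and ENO2 lower (limma adjusted p = 0.107 and 0.102), ENO2 at a mean of only 2.38 FPKM. UCHL1, the highest of these markers, went the other way, with a log2 change of 0.13 (voom adjusted p = 0.101, limma adjusted p = 0.226). Both its ketotifen libraries lay above both PBS libraries, as in 23.2% of all tested genes.

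**Figure D4:**
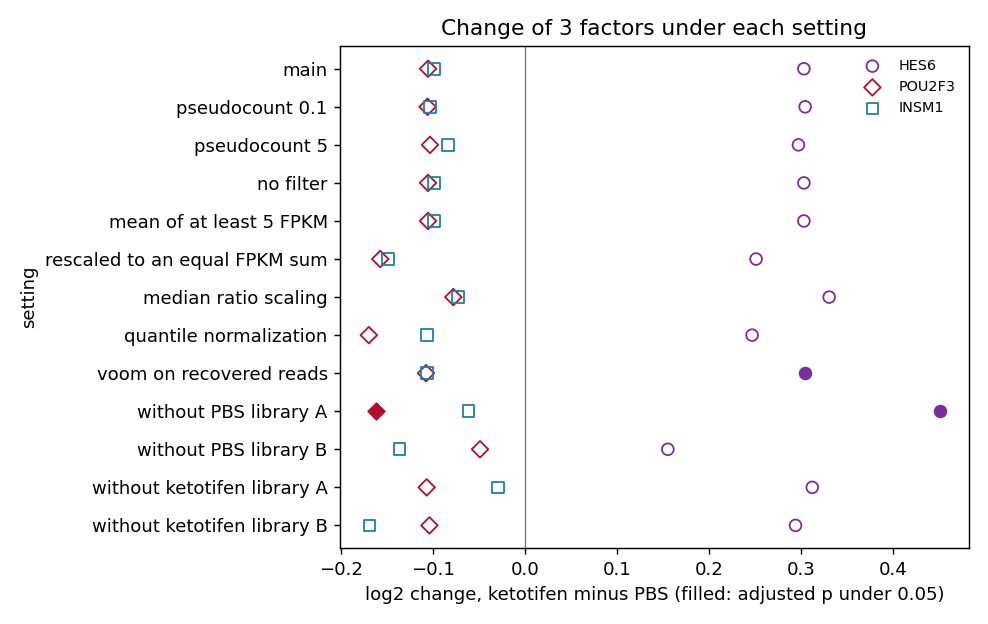
Log2 change, ketotifen minus PBS, of HES6, POU2F3 and INSM1 under the main and 12 alternative settings, with filled symbols where the adjusted p was under 0.05. HES6 runs from 0.15 without PBS library B to 0.45 without PBS library A, and no symbol crosses 0.

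The genes whose profile over the 4 libraries lay closest to that of HES6 were TMBIM4, DTYMK and ATP5F1D, taken from 7722 tested genes averaging 5 FPKM or more by the root mean square difference of centred log2 values (0.00817, 0.00942 and 0.0102). DTYMK, the thymidylate kinase, had 45.6 and 36.9 FPKM with PBS and 51.2 and 50.9 FPKM with ketotifen, and ATP5F1D, an ATP synthase subunit, had 381 and 305 FPKM with PBS and 421 and 422 FPKM with ketotifen. TMBIM4 had 5.95 and 4.65 FPKM with PBS and 6.66 and 6.67 FPKM with ketotifen. As in HES6, the lowest value of each was in PBS library B, which follows from choosing them by likeness to HES6. With 4 libraries and so many genes, close profiles are frequent, and the likeness is a description.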

How the data were processed

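RNA of 4 LASCPC-01 samples was sequenced as stranded, paired-end poly(A) libraries, per the labels' protocols. The tools fastp, HISAT2 and HTSeq and the build GRCh38 stand in the submitters' processing notes, with no version. Annotation and strand setting are not stated there, so reads of overlapping or antisense genes may be mixed. The authors deposited FPKM values for 16376 genes. Columns are named for control and Ket5, each with a letter A or B; the 5 is not explained in the labels, and the letters were not matched to replicate numbers.

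limma 3.58.1, run in R 4.3.3 with a trend on the mean level, was fitted to log2(FPKM + 1), which understates changes of low genes, for all genes averaging 1 FPKM or more (two-sided, Benjamini-Hochberg). An exact permutation test of 2 against 2 libraries cannot go below p = 0.333 and was not used. The values are whole multiples of a step per gene. From these steps whole reads, possibly divided by a factor shared by the 4 libraries, were recovered for 100.0% of tested genes (Python 3.11.15) within the rounding of 9 decimals, at an error under 0.05 reads, and 0 of 500 decoy genes gave any. voom on these was an alternative. Scripts were tested on simulated data. Members and lists were chosen with earlier results of these data known. Named genes are the members, the 3 highest genes of each list, genes called by limma or voom, and the 3 genes most like HES6, which had both the largest change and the highest level. Other genes named by level were chosen after their values were seen. Of list symbols, those with no row were not analysed here, and some genes are not reported here.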

Additional observations from a re-analysis of the deposited data

How the results depend on the processing

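Other settings were 2 pseudocounts (0.1 and 5), no filter or a mean of at least 5 FPKM, 3 scalings, voom, and leaving out each library, where the group of 1 is assumed to vary like the other. In HES6 and POU2F3 the PBS libraries differed more than the ketotifen libraries, so calls of these genes without a PBS library leave out the larger spread. Leaving libraries out of voom was added after the data were seen. Of 70 values of the 6 tested factors' changes, from the limma alternatives and from voom on all libraries, 67 kept direction and side of the threshold, 3 passed it (HES6 in voom and without PBS library A, POU2F3 without PBS library A), and 0 changed sign. The number of factors called was 1 in voom and ranged from 0 to 2 when 1 library was left out of limma, and from 0 to 3 in voom. Of all genes, 13 were called (1 higher, 12 lower), 0 with no filter, 27 at a mean of at least 5 FPKM (15 higher, 12 lower), 2 with median ratio scaling (1 and 1), 3 with quantile normalization (1 and 2) and 732 in voom (355 and 377), which gave 2138 without PBS library A, 418 without PBS library B, 126 without ketotifen library A and 269 without ketotifen library B. Leaving out 1 library gave from 8 (without ketotifen library B) to 1925 (without PBS library A), with 405 when PBS library B and 29 when ketotifen library A was left out. Rescaling to an equal FPKM sum moved the median change of all genes from -0.02 to -0.06. NKX2-1, NEUROD1 and FOXA2, with 0 to 19 recovered reads per library, were below the level for testing. The columns share the letters A and B across groups, which were not tied to the replicate numbers. Added after the data were seen, a replicate block on the letter gave 637 calls (406 higher, 231 lower) and 1 factor, HES6 (adjusted p = 0.0327). Differences of B minus A in the 2 groups correlated at r = 0.10 across genes, and 2 pairs do not show that letters pair the samples.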
